A study of Mus musculus with 10 samples.

Results

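The 10 BCL2 family genes Bcl2l1, Bcl2, Mcl1, Bax, Bak1, Bcl2l11, Bbc3, Pmaip1, Bid and Bad were examined for accessible chromatin during the induced maturation of G1E-ER4 cells. Each gene was given a window from 50 kb upstream to 50 kb downstream of its GENCODE M21 span on mm10, and every ATAC-seq peak summit inside a window was kept. The summits of all libraries were extended by 250 bp on each side and merged into 28981 regions, of which 79 fell in the windows of 9 members. The window of Pmaip1 held no summit in any library. The 3 pro-survival genes (Bcl2l1, Bcl2, Mcl1) carried 27 of the 79 regions and the 7 pro-death genes carried 52.

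ATAC-seq was performed on G1E-ER4 (G1ER) cells, a line descended from G1E, a mouse erythroid line that lacks functional Gata1. All groups share that loss and a transgene for GATA1 fused to the estrogen receptor, and all were grown in IMDM with SCF and EPO. The groups were untreated cells (0 h) and cells held in β-estradiol at 1e-07 M for 2, 6, 12 or 24 h, with 2 libraries per group and about 50000 cells tagmented for each. Estradiol releases the fusion protein to act in the nucleus, so the series follows one cultured line after GATA1 activity is restored and holds no cells with an untouched Gata1 gene. The labels do not say whether the 2 libraries of a time point came from separate cultures, but the paper describes 2 independent experiments for ATAC-seq. A spread between the 2 libraries may therefore hold differences between experiments as well as technical ones.

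Proteins of the BCL2 family decide whether the outer mitochondrial membrane is opened during apoptosis. The pro-survival proteins BCL-XL (Bcl2l1), BCL2 and MCL1 hold the effectors BAX and BAK in check. The BH3-only proteins, among them BIM (Bcl2l11), PUMA (Bbc3), NOXA (Pmaip1), BID and BAD, bind the pro-survival proteins or the effectors and tip the balance toward death. In the erythroid lineage, BCL-XL is known as the main survival protein of late precursors and MCL1 as one that earlier progenitors need, and BIM and PUMA are known as death signals when cytokine support is lost.

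The deposited lists held between 10698 (24 h replicate 2) and 19859 peaks (6 h replicate 2) on the nuclear chromosomes, and the depth of each library is unknown. Each peak carries a MACS score, −log10 of its q-value, with a lowest value of 1.302. The score is not scaled between libraries, so levels are given as the percentile of a peak's score in its own list, with 100 as the highest score of that list. A region that is not listed in a library lay below the caller's threshold there and is not shown to be closed. Of the promoters of 9 erythroid or progenitor marker genes, Tfrc was listed in all 10 libraries, Klf1 in 4, and Alas2, Slc4a1 and Gata2 in none. None of the promoters of 10 genes of other cell types was listed.

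Regions were split by their place. Of the 79, 10 held a summit within 1 kb of a start of the member itself (own promoter), 23 held one within 1 kb of a start of another protein-coding gene, and 46 were distal. Of the distal regions, 23 were intronic, 18 intergenic and 5 exonic. Regions listed in all 10 libraries made up 26.6% of the member regions and 21.5% of all 28981 regions, and regions listed in 1 library made up 21.5% of the member regions against 28.9%. The members did not have equal shares. Mcl1 and Bcl2l1 had 9 distal regions each, or 8.62 and 5.96 distal regions per 100 kb of window. Bax, a pro-death gene, had 7, or 6.65 per 100 kb, a higher density than that of Bcl2l1. Bcl2, whose window is the longest at 276.1 kb, had 2 distal regions, or 0.72 per 100 kb, and Bad, with 8 promoters of other genes around it, had 1 distal region, or 0.91 per 100 kb.

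**Figure D1:**
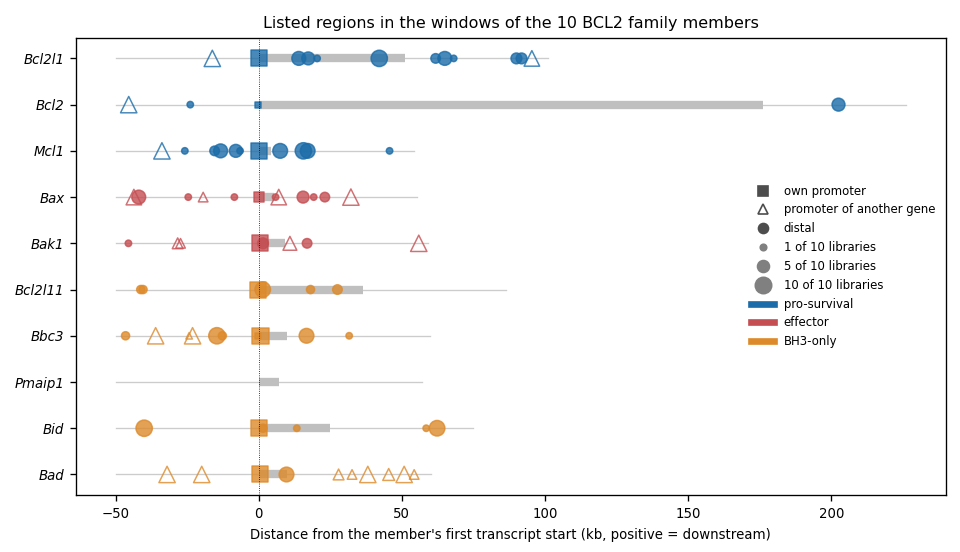
Regions in the windows of the 10 members, by distance from the member's first transcript start in kb (positive is downstream in the direction of transcription). The thin line is the window, the grey bar the gene, the symbol the class of region and its size the number of libraries out of 10 that list it. Mcl1 and Bcl2l1 carry 9 distal regions each, Bcl2 carries 2, and the line of Pmaip1 is empty.

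Among the pro-survival members, the promoter of Bcl2l1 (chr2:152830377-152831886, spanning the start) was listed in all 10 libraries and had the highest median and the smallest SD of percentiles among the promoters of the family listed in more than 1 library. Its percentiles were 90.6 and 86.0 at 0 h, 82.9 and 89.1 after 2 h, 88.2 and 93.3 after 6 h, 93.2 and 87.0 after 12 h, and 87.8 and 81.8 after 24 h for replicates 1 and 2. All 10 values lay in the upper part of their list, and the later time points overlapped with 0 h. The promoter of Mcl1 (chr3:95658345-95659571) was also listed in all 10 libraries. Its percentiles were 46.7 and 86.8 at 0 h, 89.3 and 75.3 after 2 h, 86.0 and 77.4 after 6 h, 68.5 and 72.6 after 12 h, and 86.8 and 78.3 after 24 h. The lowest of these, in 0 h replicate 1, stood against a value of 86.8 in the other untreated library, so the spread within 0 h covered the whole range of the later time points but for 2 h replicate 1. The promoter of Bcl2 (chr1:106714428-106714928) was listed in 1 library, 6 h replicate 2, at percentile 45.9, and that library holds the longest list.

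Among the effectors, the promoter of Bak1 (chr17:27028268-27029007) was listed in 9 libraries and was missing from 0 h replicate 2. Its percentiles were 34.8 at 0 h, 45.5 and 12.6 after 2 h, 31.4 and 59.3 after 6 h, 56.8 and 29.4 after 12 h, and 52.7 and 15.4 after 24 h, and the 2 replicates of each later time point were further apart than the means of any 2 time points. The promoter of Bax (chr7:45466487-45467223) was listed in 4 libraries, at percentile 47.9 in 0 h replicate 2, 23.9 and 10.5 after 2 h, and 70.5 in 6 h replicate 2. It was in neither library at 12 h and in neither at 24 h. Because 0 h replicate 1 also lacked it, the promoter did not count as lost, a call that asks for both libraries of one time point and neither of the other.

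Among the BH3-only members, the promoter of Bcl2l11 (chr2:128125520-128126159) was listed throughout, at percentiles 64.1 and 59.4 at 0 h, 55.4 and 63.7 after 2 h, 78.9 and 63.2 after 6 h, 48.3 and 72.0 after 12 h, and 77.0 and 63.0 after 24 h. No time point stood apart from the rest. The promoter of Bid (chr6:120916162-120917163) was listed in all 10 libraries at percentiles from 26.0 (12 h replicate 1) to 83.7 (6 h replicate 1), with a median of 65.5. The promoter of Bad (chr19:6941342-6942898), a region that also overlaps Gpr137, was listed in all 10 at percentiles 56.2 and 34.9 at 0 h, 87.4 and 56.4 after 2 h, 85.8 and 80.9 after 6 h, 90.2 and 71.2 after 12 h, and 63.6 and 51.6 after 24 h. Both libraries at 2 h, 6 h and 12 h were above both at 0 h, at 2 h narrowly (56.4 against 56.2). Replicate 1 was above replicate 2 at 5 of 5 time points.

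The promoter of Bbc3 (chr7:16309769-16310600) was listed in all 10 libraries and had the widest range of the family. Its percentiles were 52.0 and 56.0 at 0 h, 14.8 and 75.0 after 2 h, 2.4 and 86.4 after 6 h, 47.5 and 79.8 after 12 h, and 48.8 and 45.4 after 24 h. Replicate 2 was above replicate 1 at 4 of 5 time points, with a mean of 68.5 over the replicates 2 and 33.1 over the replicates 1, so the difference between replicate numbers was larger than any between time points. A second region of this promoter (chr7:16309189-16309689) was listed in 6 h replicate 2 alone. Pmaip1 on chromosome 18 had no listed promoter. Thus 6 of the 10 members had a promoter listed in all libraries, beside 26.0% of all 21851 protein-coding genes, and 1 of 10 had none listed in any library, beside 56.0% of all genes.

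**Figure D2:**
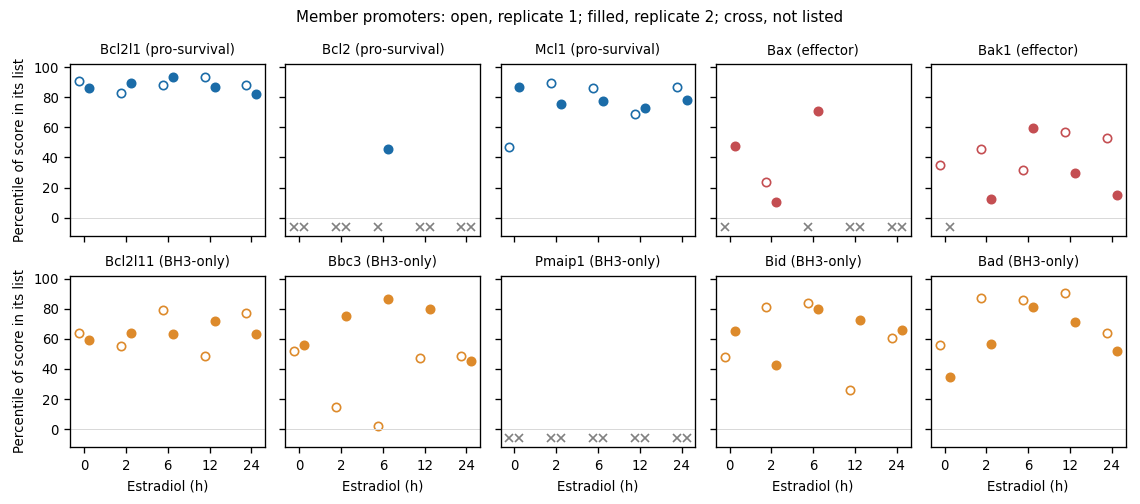
Percentile of the promoter's score in its own list (vertical axis, 100 is the highest) against hours of estradiol, for each member and library. Open circles are replicate 1, filled circles replicate 2, and crosses below 0 mark libraries that do not list the promoter. Bcl2l1 stays between 81.8 and 93.3, Bbc3 ranges from 2.4 to 86.4 with replicate 2 mostly higher, and Pmaip1 is never listed.

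A region was called gained at a later time point if both of its libraries listed the region and no 0 h library did. It was called lost if both 0 h libraries listed it and no library of the later time point. These calls have no p, since the smallest p that a two-sided exact permutation test of 2 libraries against 2 allows is 0.333. At 2 h, 1 of the 79 member regions was gained (2.67% of all regions) and 1 lost (1.15% of all). At 6 h, 6 were gained (4.08% of all) and 1 lost (0.759% of all). At 12 h, 7 were gained (2.47% of all) and 1 lost (1.88% of all). At 24 h, 6 were gained, or 7.6% of the member regions against 1.71% of all regions, and 1 was lost, or 1.3% against 3.51%. The 6 gained at 24 h lay 3 in pro-survival and 3 in pro-death windows. The counts moved with the lists. With every list cut to its best 10698 peaks the number gained became 2 at 6 h, 3 at 12 h and 4 at 24 h. Without 24 h replicate 2, the shortest list, 17 regions met the rule at 24 h, which 1 library then decided. The shares of all regions under these settings are not given, so these counts have no comparison.

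**Figure D3:**
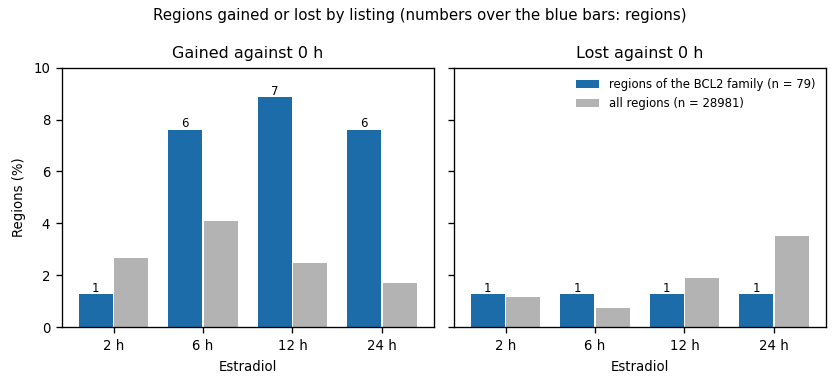
Share of regions (percent, vertical axis) gained (left) or lost (right) by listing at each time point against 0 h. Blue bars are the 79 member regions, with their number on top, and grey bars all 28981 regions. At 24 h the gained share is 7.6% for the members and 1.71% for all regions, and the lost share is 1.3% and 3.51%.

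Around the pro-survival genes, 1 intronic region of Bcl2l1 and 2 intergenic regions were gained at 24 h. The intronic region of Bcl2l1, 14.0 kb downstream of its start (chr2:152817375-152818087), was in neither 0 h library, in 2 h replicate 1 at percentile 25.05, and then in every later library, at 81.1 and 58.2 after 6 h, 48.8 and 38.2 after 12 h, and 73.1 and 38.3 after 24 h. The call at 24 h held with summits extended by 100 bp or 500 bp, with lists of equal size and with scores of at least 5. Also intronic, 17.3 kb from the start, a second region was in 0 h replicate 2 (33.2) and 2 h replicate 2 (10.1), in neither 6 h library, and in both at 12 h (34.8 and 29.0) and 24 h (56.4 and 44.7). Another intronic region, 42.1 kb from the start (chr2:152788924-152790104), was in all 10 libraries at percentiles from 19.3 (2 h replicate 2) to 81.4 (0 h replicate 1), with the 2 h pair of values, 57.5 and 19.3, below both at 0 h, 81.4 and 65.7.

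Next to Mcl1, a region 17.1 kb downstream of the start (chr3:95675584-95676215, intergenic) was in neither 0 h library and in all 8 libraries from 2 h on. Its percentiles were 31.1 and 43.4 after 2 h, 35.4 and 32.3 after 6 h, 34.5 and 37.5 after 12 h, and 51.0 and 32.0 after 24 h. It was the only member region gained at all 4 later time points, and it stayed in the lower or middle part of the lists. The call at 24 h held under the same 4 alternatives. The earlier calls did not: those at 2 h and 6 h dropped out with lists of equal size. With scores of at least 5 those at 2, 6 and 12 h dropped out. A neighbour at 15.6 kb was listed in all 10 libraries, at percentiles 67.6 and 78.6 at 0 h and 91.6 and 77.3 after 24 h. Upstream of Mcl1, a region 8.0 kb away was in both libraries at 0 h and 6 h, in neither at 2 h and in 1 each at 12 h and 24 h, so it counted as lost at 2 h alone. With lists of equal size it was lost at all 4 time points. With scores of at least 5 it was in only 1 library at 0 h and no longer counted as lost at any time point.

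Bcl2, whose own promoter was nearly always below threshold, had a region gained beyond its 3′ end, 202.5 kb from the start (chr1:106511468-106512152, intergenic). It was in neither 0 h library, in 2 h replicate 2 (58.3), in both at 6 h (29.2 and 28.9), in 12 h replicate 2 (33.9) and in both at 24 h (57.4 and 5.7). With scores of at least 5 it was listed in 1 of the 2 libraries at 24 h and no longer counted as gained.

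The sequences at these summits are shown because GATA1, the factor switched on here, binds the letters AGATAA and TGATAA. Each window is 201 bases centred on the median summit, taken from the plus strand of GRCm38.p6 (mm10), and capitals mark those letters on either strand.
Bcl2l1 14.0 kb, chr2:152817630-152817830: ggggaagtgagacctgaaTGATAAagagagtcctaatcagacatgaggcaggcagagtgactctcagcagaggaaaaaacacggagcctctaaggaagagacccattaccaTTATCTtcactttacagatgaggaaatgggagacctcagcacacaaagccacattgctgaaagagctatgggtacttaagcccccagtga
Mcl1 17.1 kb, chr3:95675820-95676020: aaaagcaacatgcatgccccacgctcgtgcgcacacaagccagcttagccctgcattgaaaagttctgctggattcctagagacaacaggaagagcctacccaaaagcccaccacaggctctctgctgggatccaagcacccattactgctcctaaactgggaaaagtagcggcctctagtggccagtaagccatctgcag
Mcl1 15.6 kb, chr3:95674247-95674447: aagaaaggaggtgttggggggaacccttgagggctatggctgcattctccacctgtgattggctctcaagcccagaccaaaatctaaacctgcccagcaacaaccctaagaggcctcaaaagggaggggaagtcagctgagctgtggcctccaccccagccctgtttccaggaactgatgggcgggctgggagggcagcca
Bcl2 202.5 kb, chr1:106511656-106511856: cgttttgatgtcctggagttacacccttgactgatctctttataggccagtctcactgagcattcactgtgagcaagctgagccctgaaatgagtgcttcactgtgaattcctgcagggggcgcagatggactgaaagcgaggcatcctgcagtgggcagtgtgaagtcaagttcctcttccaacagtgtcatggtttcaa
The Bcl2l1 window holds 2 such sites, the nearest 14 bp from the median summit, and 1 of them lies beside a CTG, as in an E-box, in the spacing searched (CTG, then 7 or 8 bases of any kind, then AGATAA, on either strand). Neither Mcl1 window holds one, nor does the Bcl2 window. A match in these letters is a description and no evidence of binding.

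Around the pro-death genes, 1 region was lost and 3 were gained at 24 h. An intronic region of Gys1, 23.1 kb downstream of the Bax start (chr7:45443494-45444170), was in both 0 h libraries at percentiles 47.8 and 56.2, in 2 h replicate 2 at 0.7, and in none of the 6 libraries at 6, 12 and 24 h. It was the only member region lost at 24 h, and the call held under all 4 alternatives. On the other side of Bax, 41.9 kb upstream (chr7:45508433-45509043, exonic, where Nucb1 and Tulp2 overlap), a region was in neither 0 h library, in 2 h replicate 1 (57.9), and in both libraries at 6 h (58.1 and 51.3), 12 h (47.4 and 36.1) and 24 h (86.1 and 61.1). Its call at 24 h also held under all 4 alternatives.

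Bak1 and Bbc3 gained regions of low rank. The region 28.3 kb upstream of Bak1 (chr17:27056920-27057613) is the promoter of Itpr3, a calcium channel of the endoplasmic reticulum, and was at percentiles 5.3 and 21.1 after 24 h, following single listings at 2 h (24.8) and 12 h (15.3). The region 12.7 kb upstream of Bbc3 (chr7:16296605-16297201, intergenic) was listed at 24 h alone, at 23.0 and 7.9. Both dropped out with lists of equal size and with scores of at least 5. A stronger region 14.6 kb upstream of Bbc3 (chr7:16294715-16295820) was in all 10 libraries, at 61.3 and 40.3 at 0 h, 94.7 and 63.1 after 2 h, 79.7 and 84.0 after 6 h, 79.8 and 64.7 after 12 h, and 76.0 and 72.6 after 24 h. All 8 later values were above both at 0 h.

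The windows of the lost Bax region, the gained Bbc3 region and the region 40.0 kb upstream of Bid, in an intron of Mical3 and listed in all 10 libraries at percentiles from 76.6 to 97.6, are given in the same form for comparison.
Bax 23.1 kb, chr7:45443733-45443933: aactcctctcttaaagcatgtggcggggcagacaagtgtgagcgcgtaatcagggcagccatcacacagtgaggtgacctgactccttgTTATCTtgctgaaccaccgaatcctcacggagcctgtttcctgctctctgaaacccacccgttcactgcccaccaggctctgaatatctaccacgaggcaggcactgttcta
Bbc3 -12.7 kb, chr7:16296803-16297003: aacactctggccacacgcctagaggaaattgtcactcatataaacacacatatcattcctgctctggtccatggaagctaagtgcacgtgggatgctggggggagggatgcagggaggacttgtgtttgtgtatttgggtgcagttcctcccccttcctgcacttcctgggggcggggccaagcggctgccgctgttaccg
Bid -40.0 kb, chr6:120956772-120956972: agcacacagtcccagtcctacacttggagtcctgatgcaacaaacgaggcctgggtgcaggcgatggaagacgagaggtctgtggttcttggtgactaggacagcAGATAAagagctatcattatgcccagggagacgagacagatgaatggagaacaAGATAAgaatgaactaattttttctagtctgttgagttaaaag
The Bax window holds 1 site 8 bp from the median summit, the Bid window holds 2, the nearest 8 bp from it, and the Bbc3 window holds none. The windows of Bcl2l1 at 42.1 kb and Bbc3 at -14.6 kb, also listed in all 10 libraries, are not shown and hold none. That of the gained exonic region of Bax at -41.9 kb, not shown either, holds 1, 24 bp from its median summit. Over all 19298 distal regions of the series, 38.8% hold AGATAA or TGATAA in the 201 bases, over those gained at 24 h 46.4%, and over those lost at 24 h 75.6%. Of the 46 distal member regions, 21 (45.7%) hold one, with 11 of 20 around pro-survival and 10 of 26 around pro-death genes. The spaced CTG and AGATAA pair was found in 4 distal regions, all of pro-survival windows (3 at Bcl2l1 and 1 at Mcl1), against 4.83% of all distal regions. Of the other letters searched on both strands, CANNTG (E-box) was in 76.1% of the distal member regions and 69.9% of all distal regions, TGANTCA (AP-1) in 17.4% and 8.79%, CCAC followed directly by ACCC (KLF) in 13.0% and 3.77%, TTC and GAA with 3 bases between them (STAT) in 10.9% and 6.85%, and CCGGAA (ETS) in 4.35% and 3.58%. These shares were not tested. The 33 promoter regions in the member windows held a GATA site in 3 cases (9.09%, against 6.46% of all promoter regions). Their median GC content was 64.2% (64.7% over all promoter regions), and that of the distal member regions was 50.5% (48.8% over all distal regions).

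**Figure D4:**
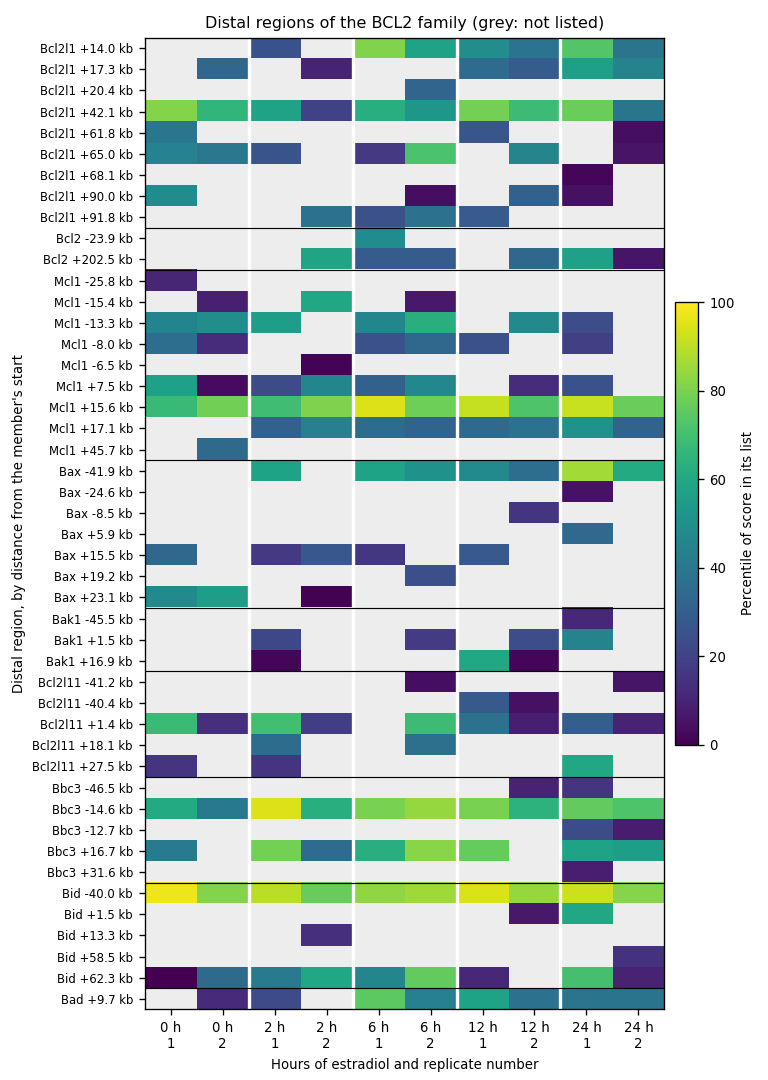
The 46 distal regions (rows, by member and distance from its start in kb) in the 10 libraries (columns, hours of estradiol over replicate number). Colour is the percentile of the score in its own list and grey means not listed. The rows of Bcl2l1 at 14.0 kb, Mcl1 at 17.1 kb and Bax at -41.9 kb fill from 2 h or 6 h on, the row of Bax at 23.1 kb empties, and 4 rows are filled in all 10 libraries.

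When pro-survival and pro-death windows were compared, distal regions were 3.76 per 100 kb in pro-survival and 3.24 per 100 kb in pro-death windows, and 2 distal regions of each side were listed in all 10 libraries. In the pro-survival windows, the number of distal regions listed was 9 and 9 at 0 h, 7 and 9 after 2 h, 11 and 13 after 6 h, 8 and 10 after 12 h, and 11 and 8 after 24 h. These counts overlapped between 0 h and every time point but 6 h, when the longest list was among them. In the pro-death windows, the number was 8 and 6 at 0 h, 12 and 8 after 2 h, 7 and 11 after 6 h, 10 and 11 after 12 h, and 16 and 10 after 24 h, or a mean of 7.00 ± 1.41 (SD, n = 2) at 0 h and 13.0 ± 4.24 after 24 h. Relative to all distal regions a library listed, the pro-death windows held 1.15 and 1.31 per 1000 at 0 h and 2.23 and 2.84 per 1000 after 24 h. Both 24 h libraries were above all 8 others, whose highest value was 1.93 in 12 h replicate 2. The separation did not hold for the numbers: the 10 of 24 h replicate 2 was within the range of the 2, 6 and 12 h libraries. That library listed the fewest distal regions of all, 3527. The pro-survival windows held 1.29 and 1.97 per 1000 at 0 h and 1.53 and 2.27 after 24 h, and these overlapped. With lists of equal size the pro-death windows held a mean of 6 distal regions at 0 h and 10 after 24 h, and with scores of at least 5 a mean of 5 and 6.5. The difference between the sides was not tested.

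**Figure D5:**
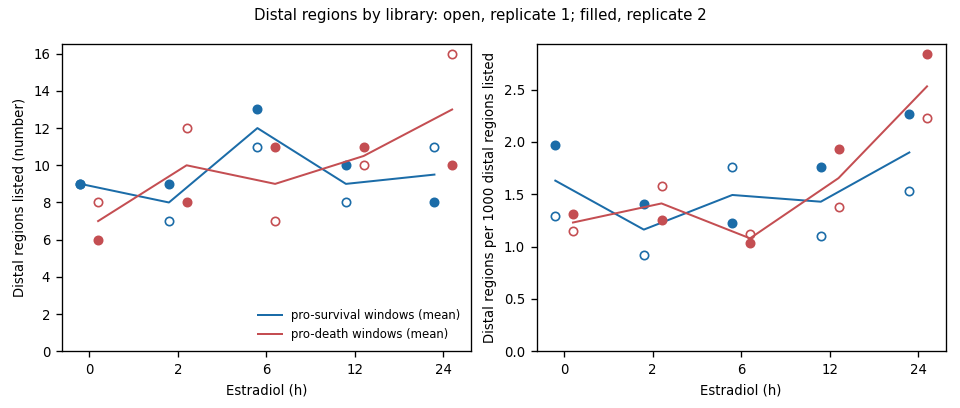
Distal regions listed in the pro-survival (blue) and pro-death (red) windows against hours of estradiol, as a number (left) and per 1000 distal regions listed in that library (right). Circles are libraries (open, replicate 1; filled, replicate 2) and lines join the means of 2. In the right panel the red circles at 24 h, 2.23 and 2.84, are above all other red circles. In the left panel the red circle of 24 h replicate 2, at 10, is not.

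For the 6234 regions listed in all 10 libraries, ranks among these regions were turned into normal scores and fitted with limma. The fits had a slope over the order of the 5 time points, or each time point against 0 h. Of all regions, 0 (0%) passed an adjusted p of 0.05 for the slope and 0 (0%) for 2, 6, 12 or 24 h against 0 h, so none of the 21 member regions tested did. At an unadjusted p under 0.05 the slope gave 317 regions (5.09%) and 1 of the 21 member regions. The time points against 0 h gave between 173 and 260 regions each. Of the member regions they gave 1 at 2 h (3.18% of all regions), 0 at 6 h, 0 at 12 h and 1 at 24 h (4.17% of all). The 1 at 2 h was the region of Bcl2l1 at 42.1 kb, at -1.41 ± 0.62 (SE) normal score units against 0 h. The 1 at 24 h was the same region as for the slope. The 1 member region of the slope was the promoter of Inafm1, 36.0 kb upstream of Bbc3, at percentiles 37.0 and 27.9 at 0 h, 77.6 and 42.1 after 2 h, 28.9 and 89.7 after 6 h, 51.9 and 79.2 after 12 h, and 67.6 and 90.8 after 24 h. These percentiles are of the whole lists. Among the 6234 regions fitted, the same promoter stood at percentiles 8.49 and 10.19 at 0 h and 35.97 and 84.45 after 24 h. Its slope was 0.36 ± 0.15 (SE) normal score units per time step (limma, adjusted p = 0.914). The 21 slopes lay 11 above and 10 below 0 with a median of 0.01, beside a median of -0.0006 over all 6234.

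The own promoters of the 6 members listed throughout showed the same. The slope of Bcl2l1 was -0.01 ± 0.10 (SE), of Mcl1 0.07 ± 0.13, of Bcl2l11 0.08 ± 0.12, of Bbc3 0.03 ± 0.18, of Bid 0.01 ± 0.14 and of Bad 0.12 ± 0.13 (limma, adjusted p = 0.997 for each). Of the distal regions in every library, the one 15.6 kb from Mcl1 had the steepest slope, 0.16 ± 0.13, and those of Bcl2l1 at 42.1 kb, Bbc3 at -14.6 kb and Bid at -40.0 kb had slopes of 0.03 ± 0.15, 0.11 ± 0.13 and -0.02 ± 0.12. In each of these 10 fits the slope was smaller than 2 of its own SE, which does not show that the ranks stayed the same.

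Of 13 further BCL2 relatives, 0 had a promoter listed in all 10 libraries and 9 were listed in none, among them the BH3-only genes Bik, Bmf and Hrk, the effector relative Bok, and Bcl2a1a, Bcl2a1b and Bcl2a1d. The Bcl2a1 genes are near-identical copies and the authors kept uniquely aligned reads, so their absence from the lists is uncertain. Bcl2l2, which encodes the pro-survival protein BCL-W, was listed in 7 libraries at percentiles from 0.7 to 54.6. The promoter of Bcl2l12, a relative with an incomplete set of BCL2 motifs, was in neither 0 h library and in all 8 later ones, at percentiles 65.9 and 36.5 after 2 h, 45.2 and 78.99 after 6 h, 32.0 and 28.4 after 12 h, and 46.8 and 47.3 after 24 h. It was the only promoter of the 13 called gained.

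Of 28 genes of the apoptosis pathway, 18 had a promoter listed in all 10 libraries and 3 in none. The caspase and apoptosome group was listed throughout for 5 of 7 genes, among them Apaf1, the scaffold of the apoptosome (percentiles 70.8 to 96.6), and Casp9, the caspase it activates (51.4 to 92.5). The 3 never listed were the death receptors Fas, Tnfrsf10b and Tnfrsf1a. Xiap, an inhibitor of caspases, was gained at 2 h alone, at 17.5 and 9.2, and was in 1 library at each later time point. Trp53, which encodes the tumour suppressor p53, was listed in both libraries at 0 h (71.5 and 89.4), 6 h (54.4 and 77.8) and 24 h (58.3 and 53.9), in 2 h replicate 2 (70.5) and in neither at 12 h, so it counted as lost at 12 h alone.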

How the data were processed

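ATAC-seq of 10 libraries was analysed, grouped by the time point in the sample titles. The authors trimmed adaptors, kept reads with 1 position in mm10 and called peaks per library with MACS without a fragment model. The submitters' processing notes name Bowtie 1.0.0, Picard and MACS2, whereas the methods name Bowtie2. No shift for the Tn5 cut is stated, so a summit may lie a few bases off. The deposited lists hold 1 bp summits and a score that the authors' peak caller gave as −log10 of the q-value (p-value adjusted for multiple tests), with no read counts, so depth is unknown.

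Peaks on chromosomes 1 to 19, X and Y were extended by 250 bp and merged. Starts were those of 21851 protein-coding genes of GENCODE M21 (basic set). A promoter lay within 1 kb of a start. Ranks of regions in all 10 libraries were fitted with limma 3.58.1 in R 4.3.3, with Benjamini-Hochberg adjustment over all 6234 regions. In a test on simulated data the fit found most of the larger slopes set and missed nearly all of the smaller ones. The absence of calls therefore does not show unchanged ranks. The labels do not say whether equal replicate numbers pair the samples. The differences between replicates 1 and 2 correlated between all 10 pairs of time points (0.177 to 0.359), so a fit with the number as a block was also made. The slopes in the Results are from the fit without the block. Named were all member promoters, regions gained or lost at 24 h and distal regions in all 10 libraries. Other regions (Bcl2l1 at 17.3 kb, Mcl1 at -8.0 kb, Inafm1 and the promoters in the last section) were chosen after their values were seen. The members and gene lists were chosen with earlier results of these data known. Hbb-b1, on the marker list, was not found under that symbol.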

Additional observations from a re-analysis of the deposited data

How the results depend on the processing

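With the replicate block, 0 regions were called along the time course or at 2, 6, 12 or 24 h, and this fit changed no other call. With the block, the slope of the Inafm1 promoter had an adjusted p of 0.535 (limma). The other limma fits also called 0, except that regions in 5 or more libraries gave 43 along the time course, with 0 member regions. Among the own promoters and distal regions listed in all libraries, the lowest adjusted p under any alternative was 0.8125 (limma, slope or 24 h against 0 h). The number of member promoters listed in all libraries (6) was 5 within 500 bp of a start, 4 with lists of equal size and 4 with scores of at least 5, and leaving out 1 library gave 6 to 7 (7 without 0 h replicate 2).

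Counts by listing moved more; the cause was not tested beyond each setting's own construction. Member regions gained at 2 h (1) became 2 with summits extended by 500 bp, 0 with lists of equal size, 0 with scores of at least 5 and 4 at 100 kb on each side; lost at 2 h (1) became 3 with equal lists and 2 with scores of at least 5. Those gained at 6 h (6) became 2 with equal lists and 2 at 25 kb, and lost (1) became 2 with equal lists. Those gained at 12 h (7) became 3 with equal lists, 3 with scores of at least 5 and 4 at 25 kb, and lost (1) became 2 with equal lists. Those gained at 24 h (6) became 3 with scores of at least 5 and 3 at 25 kb, and lost (1) became 3 with equal lists, 3 with scores of at least 5 and 2 at 100 kb. Leaving out 1 library, which leaves 1 library to decide a time point, gave gained counts of 2 to 8 at 2 h, 7 to 16 at 6 h, 8 to 14 at 12 h, 8 to 17 at 24 h (highest without 2 h replicate 2, 6 h replicate 1, 12 h replicate 1 and 24 h replicate 2) and lost counts of 2 to 5 at 2 h, 1 to 5 at 6 h, 3 to 5 at 12 h, 4 to 4 at 24 h. The mean number of distal regions in pro-survival windows (9 at 0 h, 9.5 at 24 h) became 8 and 7 with equal lists and 7 and 5.5 with scores of at least 5, and 7.5 at 0 h with 25 kb. That in pro-death windows (7 and 13) became 6 and 10 with equal lists, 5 and 6.5 with scores of at least 5, 5 and 8 with 25 kb, and 13.5 and 20 with 100 kb. The matching gained and lost shares of all regions are not given for these settings. Depth is unknown, and a region absent from a list lay below the caller's threshold there and is not shown to be closed.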

Other observations

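The windows also hold promoters of neighbouring genes, 23 regions of which 11 were listed in all 10 libraries. The promoter of Ftl1, which encodes the ferritin light chain that stores iron, lies 7.0 kb from the Bax start and was listed in 9 libraries, at percentiles 54.0 and 41.4 at 0 h, 61.1 and 78.0 after 2 h, 22.5 and 77.5 after 6 h, 60.1 and 76.2 after 12 h, and 87.6 in 24 h replicate 2. The promoter of Id1, an inhibitor of E-box binding factors, lies 95.4 kb from the Bcl2l1 start and was listed in 9 libraries at percentiles from 4.7 to 49.8, the highest in 6 h replicate 1. The promoter of Vegfb, a growth factor, lies 45.4 kb from the Bad start, was in neither library at 0 h or 2 h, and was in both at 6 h (17.1 and 41.1) and 12 h (28.8 and 42.5) and in 24 h replicate 1 (18.9). The promoter of Ensa, upstream of Mcl1, was at percentiles from 97.6 to 99.6 in all 10 libraries.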
